A study of Rattus norvegicus with 24 samples.

Results

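The paraventricular nucleus of the hypothalamus (PVN) was compared with the rostral ventrolateral medulla (RVLM) in the spontaneously hypertensive rat (SHR), an inbred rat strain that develops high blood pressure. The comparison used 9 of the 24 arrays of the series: PVN arrays 1, 2, 4 and 5 against 5 RVLM arrays. The remaining SHR PVN array, number 3, was left out for the high 3'/5' ratios of its control probe sets, and its values are given separately. Each array carried total RNA pooled from 5 male rats of 10 to 13 weeks, amplified and hybridised to a rat expression array, so n counts pools. The other arrays were of the SHR supraoptic nucleus (SON, 4 arrays), the SHR neurointermediate lobe of the pituitary (5 arrays) and RVLM of the Wistar-Kyoto rat (WKY, 5 arrays), the normotensive strain from which SHR was derived. The labels name no treatment, and the groups share sex and age. The samples were dissected tissue. The sources used here do not give the borders of the dissections or say whether 1 set of rats gave both regions. P-values measure the spread between pools.

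The PVN holds magnocellular neurons, which send vasopressin and oxytocin to the posterior pituitary, and parvocellular neurons, which release corticotropin-releasing and thyrotropin-releasing hormone into the portal vessels of the pituitary. A further set of PVN neurons projects to the RVLM and to the spinal cord. The RVLM holds the C1 adrenaline neurons and other neurons that drive sympathetic nerve activity and so blood pressure, and it lies close to the cholinergic motor neurons of the nucleus ambiguus and the facial nucleus.

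Values are the intensities deposited for each probe set, on a linear scale. Of 31042 probe sets that were not controls, 18625 had a mean above the 40th percentile, an intensity of 26.2, and were tested on the log2 scale after the arrays were brought to a common median. A difference of 1 on this scale is a ratio of 2. A gene was called where limma's moderated test gave a Benjamini-Hochberg adjusted p below 0.05 over all probe sets tested, and each gene is given by its brightest probe set. Levels of different genes are not compared, since probe sets differ in their response.

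Median intensities were 35.9 to 46.5 on the PVN arrays and 37.8 to 42.8 on the RVLM arrays. Rank correlations between arrays over all probe sets were 0.945 to 0.973 within PVN, 0.954 to 0.970 within RVLM and 0.881 to 0.918 between the regions. The 3'/5' ratio of the actin control was 2.97 to 3.86 in PVN and 2.18 to 3.30 in RVLM, and that of the GAPDH control was 1.07 to 1.26 and 1.13 to 1.34. On PVN array 3 these ratios were 7.01 and 3.33, above every other array of the series. That array correlated with the other PVN arrays at 0.893 to 0.923 and with the SON arrays at 0.926 to 0.941. It read nearer to SON than to the other PVN arrays for several genes given below, and the files do not settle whether its label is right.

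The labels were checked first against the markers of both regions. Avp, which encodes vasopressin, read 3893, 4550, 5284 and 4200 on PVN arrays 1, 2, 4 and 5. Its RVLM values were 13.5, 14.7, 22.04, 19.2 and 16.9. The groups lay far apart, and PVN was higher by 7.97 on the log2 scale (SE 0.16, adjusted p = 8.04e-15). Oxt, which encodes oxytocin, read 3439, 4014, 5234 and 3892 in PVN. In RVLM it read 10.4, 13.6, 3.76, 13.3 and 3.24, all near the low end of the scale. Its difference was 9.04 (SE 0.34, adjusted p = 1.73e-11), the largest among called genes with a symbol. The size of such a difference depends on very low RVLM values: with 16 or 64 added to each intensity before the log, it was 7.35 or 5.81 for Oxt and 7.03 or 5.77 for Avp. Sim1, a transcription factor needed to form the PVN, read 58.8, 69.0, 80.4 and 81.8 in PVN and 0.693, 5.48, 8.03, 4.75 and 0.831 in RVLM. Its mean lay below the filter; without a filter the difference was 4.72 (adjusted p = 0.000106). Otp, another factor of the developing neuroendocrine hypothalamus, read 6.05 ± 4.73 (SD, n = 4) in PVN and 1.67 ± 1.04 (n = 5) in RVLM and was below the filter. Without a filter its difference of 1.585 was not called (adjusted p = 0.113), and the groups overlapped.

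On the RVLM side, Pnmt, which makes adrenaline from noradrenaline and marks the C1 neurons, read 180, 113, 251, 207 and 208 on the 5 arrays. In PVN it read 8.36, 1.92, 4.11 and 3.71, and the groups did not overlap. It was lower in PVN, with a difference of -5.62 (SE 0.37, adjusted p = 5.37e-09). Dbh, which makes noradrenaline, lay below the filter at 9.05 ± 5.14 in PVN (n = 4) and 38.1 ± 8.47 in RVLM (n = 5), and without a filter it differed by -2.28 (adjusted p = 0.000235). Calca, which encodes calcitonin and its gene-related peptide and is abundant in cranial motor neurons, read 1648, 1404, 1427, 1557 and 1341 in RVLM. PVN values were 33.9, 21.96, 22.5 and 2.03, and the difference was -6.83 (SE 0.57, adjusted p = 8.9e-08). Nefh, the heavy neurofilament subunit of large axons, read 287, 245, 212 and 213 in PVN and 3507, 3375, 2737, 3561 and 4621 in RVLM. Its difference was -3.95 (SE 0.19, adjusted p = 1.29e-10). Most of these markers went with the labels of both regions, but they were chosen with earlier results of these data known. Th, which adrenaline neurons also use, was higher in PVN, as given below. Motor neuron genes were high in the tissue labelled RVLM.

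**Figure D1:**
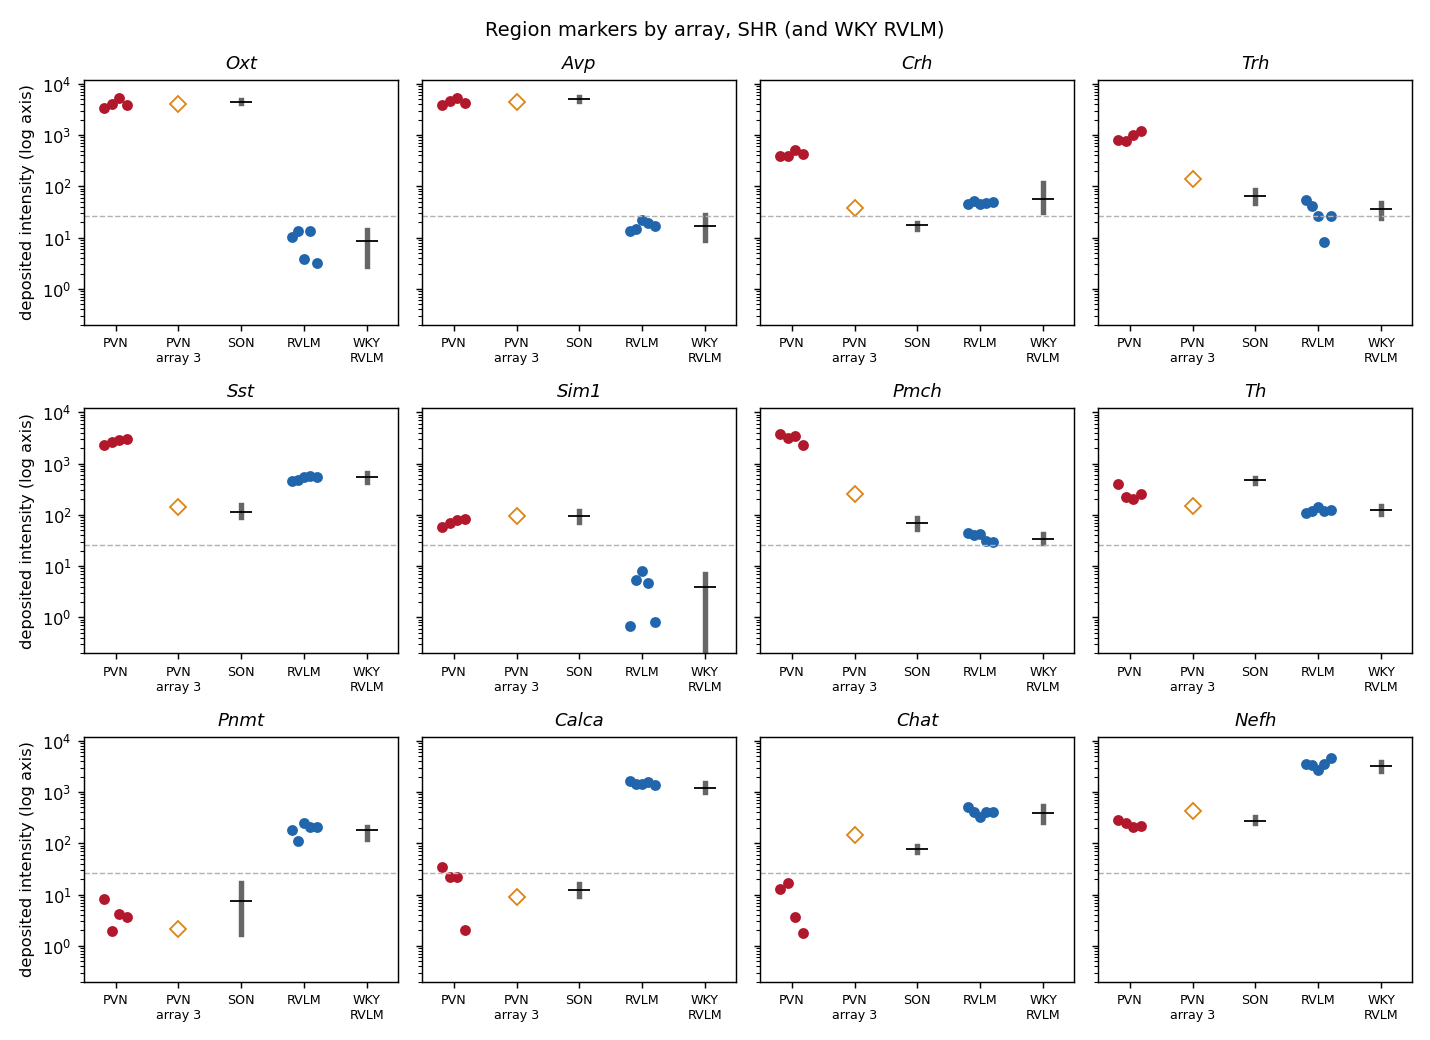
Deposited intensity of 12 region markers on a log axis. Points are the 4 PVN arrays (red) and 5 RVLM arrays (blue), the open diamond is PVN array 3, grey bars are the range and the cross line the mean of the SON and WKY RVLM arrays, and the dashed line is the filter at 26.2; Crh and Trh were high on the 4 PVN arrays but read 38.1 and 138 on PVN array 3.

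Over all tested probe sets, 8144 (43.7%) were called, of which 3892 had the greater value in PVN and 4252 in RVLM. By gene, 4635 of 10535 (44.0%) were called, 2514 higher in PVN (23.9%) and 2121 lower (20.1%), with a median difference of 0.06 over all genes. The groups did not overlap for 3534 of the called genes. Differences of at least 1 were found for 571 higher and 641 lower genes, of at least 2 for 124 and 149, and of at least 4 for 18 and 17. With the values as deposited, without the shift to a common median, 5483 genes were called, 3357 higher and 2126 lower, and the median of all genes was 0.12. Quantile normalization gave 3186 higher and 2254 lower, and array weights gave 2590 higher and 2826 lower. Without PVN array 1, on the main scaling, 2185 were higher and 2625 lower. The split between higher and lower genes therefore moves with the scaling, the weights and the arrays used, and counts below are relative to the common median. Counts within gene lists are to be read beside the 23.9% of all genes higher in PVN and 20.1% lower. In tissue samples, fewer cells of a type and less RNA per cell cannot be told apart.

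**Figure D2:**
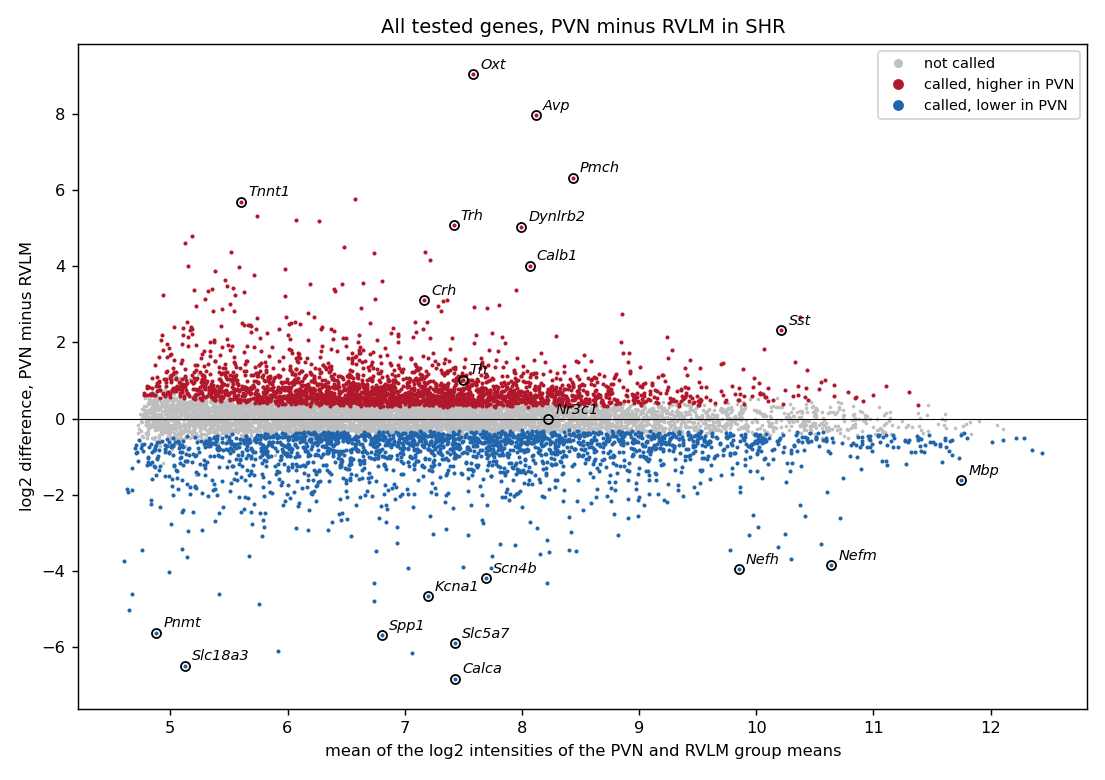
Difference between PVN and RVLM on the log2 scale against mean log2 intensity for the 10535 genes tested, 1 point per gene, with called genes in red (higher in PVN) or blue (lower) and others in grey. Oxt and Avp stand at 9.04 and 7.97, and Calca and Slc18a3 at -6.83 and -6.48.

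The magnocellular peptides were nearly all higher in PVN. Of 12 genes listed for magnocellular hormones and the peptides made beside them, 10 passed the filter, 8 were higher and 1, Apln, was lower, with a median of 1.64 against 0.06 over all genes. Without PVN array 2 no tested member was lower. Pdyn, the precursor of dynorphin, read 638 ± 87.9 in PVN (n = 4) and 78.3 ± 18.3 in RVLM (n = 5), a difference of 2.98 (SE 0.19, adjusted p = 4.86e-09). Cartpt, the precursor of the CART peptides, read 3407 ± 254 and 517 ± 100, a difference of 2.67 (SE 0.18). Cck, which encodes cholecystokinin, was higher by 1.80 (SE 0.16). PVN array 3 did not stand apart for the hormones themselves: it read 4337 for Avp and 4012 for Oxt. It did for Pdyn, at 1497 above the other 4 PVN arrays, and for Cartpt, at 995 below them.

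Upstream sequence from RefSeq (GRCr8) is shown for the pair of magnocellular hormone genes, which lie close together on chromosome 3 on opposite strands. For Oxt the 250 bases before the gene's start are chr3:138235504-138235753 on the plus strand, and capitals mark TGACC and its reverse complement GGTCA, a half-site bound by nuclear receptors. For Avp they are chr3:138248523-138248772 on the minus strand, and capitals mark TGACG and its reverse complement CGTCA, the core of a cAMP response element.
Oxt: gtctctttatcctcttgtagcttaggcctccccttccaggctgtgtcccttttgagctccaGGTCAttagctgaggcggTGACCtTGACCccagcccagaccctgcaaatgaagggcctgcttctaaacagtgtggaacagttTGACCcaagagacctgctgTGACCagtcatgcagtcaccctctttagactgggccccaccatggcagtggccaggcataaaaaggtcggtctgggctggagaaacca
Avp: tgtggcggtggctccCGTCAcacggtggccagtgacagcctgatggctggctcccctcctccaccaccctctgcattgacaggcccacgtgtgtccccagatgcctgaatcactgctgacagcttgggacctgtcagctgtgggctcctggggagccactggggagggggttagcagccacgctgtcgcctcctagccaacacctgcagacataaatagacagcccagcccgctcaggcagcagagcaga
The Oxt stretch held 5 matches, beginning 189, 171, 165, 107 and 88 bases before the start, and the Avp stretch held 1, at 235. Of 33469 upstream stretches of this length, 35.4% held TGACC and 18.2% held TGACG on either strand. Among the 9931 stretches of tested genes the shares were 32.9% and 27.5%. A match is a description of these letters and does not show that a factor binds there.

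The parvocellular releasing hormones were higher in PVN. Crh, corticotropin-releasing hormone, read 400, 393, 514 and 426 in PVN and 44.5, 51.9, 44.5, 47.0 and 50.7 in RVLM, a difference of 3.11 (SE 0.12, adjusted p = 1.96e-11). Trh, thyrotropin-releasing hormone, read 806, 762, 997 and 1183 in PVN and 54.1, 41.8, 25.9, 8.18 and 26.1 in RVLM. Its difference was 5.07 (SE 0.36, adjusted p = 1.26e-08). Sst, the somatostatin precursor, read 2335, 2615, 2879 and 3031 in PVN against 465, 476, 555, 564 and 538, a difference of 2.32 (SE 0.13, adjusted p = 1.32e-09). In none of the 3 did the groups overlap.

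PVN array 3 did not share these levels. It read 38.1 for Crh, below every RVLM array, 138 for Trh and 143 for Sst. Put back into the fit, it left Crh higher by 2.43 (adjusted p = 0.00248), whereas Sst was no longer called (1.48, adjusted p = 0.0816). Of the other listed parvocellular peptides, the substance P precursor Tac1 was lower in PVN by 1.03 on the log2 scale, and so were Penk (0.88), Vip and Nppc. Penk encodes the enkephalins and read 1174, 896, 717 and 838 in PVN and 1330, 1502, 1939, 1583 and 1548 in RVLM. In all, 3 of the 8 tested members were higher and 4 lower, with a median of -0.32.

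Peptides of the neighbouring lateral hypothalamus were also high on the 4 PVN arrays. Pmch, the precursor of melanin-concentrating hormone, read 3736, 3191, 3417 and 2304 in PVN and 45.1, 40.1, 43.0, 30.6 and 30.0 in RVLM, a difference of 6.32 (SE 0.18, adjusted p = 6.4e-13). Hcrt, the orexin precursor, read 746, 582, 262 and 241 in PVN against 16.2, 20.2, 13.7, 14.4 and 22.4, a difference of 4.51 (SE 0.32). Both neuropeptides belong to neurons outside the PVN, and the range across PVN pools was wide for Hcrt. Npvf, which encodes a peptide of the dorsomedial hypothalamus, read 228, 118, 63.8 and 68.5, with PVN array 1 highest. Of 4 tested members of this list, 3 were higher (4 of 8 without the filter) and Npy was not called (399 ± 34.3 in PVN, n = 4, and 336 ± 48.8 in RVLM, n = 5). Of all genes 23.9% were higher, and without the filter 2673 of 14217 were. Hcrt and Npvf lay under 26.2 in RVLM and passed through their PVN level. PVN array 3 read 259 for Pmch and 41.7 for Hcrt. How far neighbouring tissue in the dissection contributes to the other differences was not tested.

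Transcription factors of the forebrain were mostly higher in PVN. In their list 5 of 17 members with a probe set passed the filter, 4 higher in PVN and 1 lower. Without the filter, where 33.6% of 14217 genes were called, 10 were higher and 1 lower. Dlx1, a homeobox gene of forebrain inhibitory neurons, read 207, 232, 172 and 162 in PVN and between 10.0 and 16.5 in RVLM, a difference of 3.97 (SE 0.22, adjusted p = 1.04e-09). Nkx2-1, which patterns the ventral hypothalamus, was higher by 1.11 (SE 0.25), and Arnt2, the partner of Sim1 in the developing PVN, by 0.91 (SE 0.14). Meis2, a Hox cofactor, was the lower member, at 170, 80.1, 42.1 and 34.1 in PVN against 557 to 681 in RVLM (-3.28, SE 0.37).

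Hox genes, which mark positions along the hindbrain and spinal cord, were lower in PVN. Over the 25 listed hindbrain genes with a probe set, without the filter, 12 were lower and 3 higher, with a median of -0.79. With it 8 were tested, 7 lower and 1, Lhx1, higher; several of the lower genes, among them those named here, lay under 26.2 in PVN and passed through their RVLM level. Without PVN array 1, PVN array 2 or RVLM array 1 none of the tested was higher. Hoxb2 read 8.25, 1.79, 6.92 and 5.81 in PVN and 121, 93.3, 115, 123 and 122 in RVLM, a difference of -4.60 (SE 0.36, adjusted p = 3.87e-08). Hoxc4 was lower by 2.69, Hoxd4 by 2.46 and Hoxd3 by 2.39, and Irx3, an Iroquois homeobox gene, by 2.94. PVN array 3 read 6.23 for Hoxb2, within the range of the other PVN arrays.

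Genes of catecholamine synthesis went both ways. Th, the first enzyme of the pathway, was higher in PVN at 391, 224, 201 and 251 against 109, 116, 140, 118 and 126 in RVLM, a difference of 1.02 (SE 0.21, adjusted p = 0.000809). Dopamine neurons of the hypothalamus use Th without Dbh or Pnmt. Dbh and Pnmt were low in PVN as given above, and which cells gave the Th difference was not tested. Of 9 tested members 4 were higher and 4 lower, and with PVN array 3 added the counts were 2 and 3. Qdpr, which recycles the cofactor of Th, was lower by 1.55 (SE 0.16), and Maoa, which degrades noradrenaline and serotonin, by 0.92 (SE 0.12). Slc6a4, the serotonin transporter of the raphe nuclei, was low in both regions at 19.9 ± 8.96 in PVN (n = 4) and 39.5 ± 9.33 in RVLM (n = 5), and lower in PVN by 1.14 (SE 0.28), though without RVLM array 3 or 5 its mean lay below the filter.

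The cholinergic and motor neuron list was lower in PVN almost throughout, with 8 of 9 tested members lower, none higher and a median of -4.87. Of all genes 20.1% were lower. Several members, among them Chat, Slc18a3, Slc5a7 and Calcb, had PVN means under 26.2 and passed through their RVLM level. Over the 12 listed with a probe set, without the filter, 9 were lower and the median was -4.17, where 33.6% of 14217 genes were called. Chat, which makes acetylcholine, read 13.1, 16.9, 3.72 and 1.82 in PVN and 521, 409, 327, 401 and 413 in RVLM (-6.11, SE 0.50, adjusted p = 6.49e-08). Slc18a3, the vesicular acetylcholine transporter, read 11.5, 1.02, 2.22 and 3.52 against 277, 287, 213, 260 and 298 (-6.48, SE 0.49). Slc5a7, the choline transporter, read 29.2, 11.3, 31.1 and 22.7 against 1302, 1212, 1137, 1232 and 1421 (-5.90, SE 0.23). None of these groups overlapped. Calcb, the close paralog of Calca, was lower by 4.87 (SE 0.30), and whether 1 transcript hybridised to both probe sets was not tested. Isl1, a transcription factor of motor neurons and of some hypothalamic neurons, was not called (47.6 ± 12.7 in PVN, n = 4, and 38.7 ± 10.9 in RVLM, n = 5). PVN array 3 read higher than the other 4 PVN arrays for Chat (148), Slc18a3 (46.8) and Slc5a7 (296).

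Neurofilament and large-axon genes were lower in PVN, 14 of 17 tested against 1 higher (Mapt), with a median of -1.99. Nefm, the medium neurofilament subunit, read 464, 427, 417 and 411 in PVN and 6264, 5776, 5837, 5187 and 6549 in RVLM (-3.85, SE 0.15, adjusted p = 1.96e-11). Spp1, the secreted phosphoprotein osteopontin, was lower by 5.69, Sncg, gamma-synuclein, by 3.45, and Vamp1, a vesicle fusion protein, by 3.02.

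Over 26 tested potassium channel genes, 7 were higher in PVN and 12 lower, where 23.9% and 20.1% of all genes were. Kcna1, a potassium channel of axons, was lower by 4.67 (SE 0.35), its accessory subunit gene Kcnab1 by 3.19 and Kcna2 by 2.39, while Kcnk2, a background potassium channel, was higher by 1.52 (SE 0.20).

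In the list of sodium, calcium, HCN and TRP channels, 12 of 22 tested genes were higher in PVN and 4 lower, where 23.9% and 20.1% of all genes were. Scn4b, a sodium channel subunit, read 49.0, 36.5, 59.6 and 55.4 in PVN and 819 to 885 in RVLM, far apart, and was lower by 4.18 (SE 0.14). Scn1a, another sodium channel, was lower by 2.52. Cacna1b, the N-type calcium channel, read 196, 245, 269 and 225 in PVN and 69.7, 82.9, 82.2, 71.1 and 71.2 in RVLM, a difference of 1.56 (SE 0.12). Scn2a, a sodium channel of unmyelinated axons and initial segments, was higher by 1.40 (SE 0.13), and Cacna2d3 was lower by 1.39. Calcium-binding proteins were higher for 9 of 14 tested and lower for 2. Calb1, calbindin, read 1137, 1043, 1105 and 1112 in PVN against 54.8 to 75.9 in RVLM (4.01, SE 0.14, adjusted p = 4.13e-12). Hpcal4, a neuronal calcium sensor, was higher by 2.89 (SE 0.18) and Camk2a, a kinase of excitatory synapses, by 2.40 (SE 0.16).

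Markers of the fast transmitters differed less. Slc17a6, the glutamate transporter of hypothalamic and brainstem neurons, read 837 ± 48.5 in PVN (n = 4) and 699 ± 58.3 in RVLM (n = 5), and its difference of 0.20 (SE 0.13, adjusted p = 0.242) was not called. Gad1, which makes GABA, read 1702, 1343, 956 and 924 in PVN and 763, 828, 893, 725 and 768 in RVLM. The groups overlapped after the shift to a common median, and the difference of 0.52 (SE 0.21) missed the threshold (adjusted p = 0.0513). Both were called higher with the values as deposited and after quantile normalization. Gad1 was also called with 16 or 64 added before the log, without PVN array 4 or 5, and with PVN array 3 added. Slc6a5, the transporter of glycine neurons, was below the filter at 3.16 ± 1.14 (n = 4) and 4.89 ± 5.22 (n = 5), and so was not tested. Glrb, the glycine receptor's beta subunit, was lower in PVN by 1.47 (SE 0.17), while Gabbr1, a subunit of the GABA-B receptor, was higher by 0.94 (SE 0.13). Of the glutamate genes, 7 of 18 tested were higher and 6 lower, 72.2% called against 44.0% of all genes. Grm3, a presynaptic receptor, differed most and was lower by 2.05 (SE 0.15).

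Receptors for several peptides were higher in PVN. Agtr1a, the type 1a angiotensin receptor, read 80.8, 60.7, 79.4 and 104 in PVN and 17.6, 12.1, 15.7, 13.2 and 14.8 in RVLM. The groups did not overlap and the difference was 2.38 (SE 0.22, adjusted p = 2.3e-07). On PVN array 3 Agtr1a read 19.4, near the RVLM arrays. Mc4r, the melanocortin receptor of appetite and sympathetic control, read 62.7, 72.1, 69.9 and 80.0 in PVN and 34.1, 13.4, 26.6, 23.4 and 17.7 in RVLM (1.63, SE 0.25, adjusted p = 5.2e-05). Calcr, the calcitonin and amylin receptor, read 378, 514, 588 and 484 against 38.5 to 68.4 (3.10, SE 0.18), and Npy1r, a neuropeptide Y receptor, 104, 114, 142 and 132 against 17.1 to 25.7 (2.46, SE 0.18). Prlr, the prolactin receptor, was higher by 1.43 (SE 0.17). Over the whole list of peptide receptors, 12 of 22 tested genes were higher and 2 lower, with a median of 0.50. Of all genes 23.9% were higher and 20.1% lower.

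Nr3c1, the glucocorticoid receptor, read 304 ± 29.9 in PVN (n = 4) and 295 ± 39.2 in RVLM (n = 5) and was not called (-0.02, SE 0.12, adjusted p = 0.911). Of 9 tested members of the renin-angiotensin and mineralocorticoid list, 4 were lower and none higher, 44.4% called and so near the 44.0% of all genes. The lower ones were Hsd11b1, which regenerates active glucocorticoid, by 1.98, Sgk1, a kinase induced by corticosteroids, by 1.85, Nr3c2, the mineralocorticoid receptor, by 0.64, and Atp6ap2, the prorenin receptor, by 0.38. The call of Atp6ap2 (adjusted p = 0.0478) was lost when any of the arrays but PVN array 1 and RVLM array 2 was left out, and 1 member was higher without RVLM array 2 or 4. Sgk1 read 183, 124, 101 and 93.3 in PVN and 696, 350, 464, 395 and 285 in RVLM, and 610 on PVN array 3. Htr2c, a serotonin receptor, was lower by 1.47 (SE 0.17), as the 1 lower member of the aminergic receptors. Of 11 tested nitric oxide and cGMP genes, 3 were higher and 2 lower, 45.5% called. The higher ones were the arginine enzymes Ddah1 (1.23), Arg1 (0.90) and Ass1 (0.61), and the lower ones Nos1ap (-1.83), an adaptor of neuronal nitric oxide synthase, and Prkg2 (-0.96), a kinase driven by cGMP.

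Of the genes for making and releasing peptide hormones, 7 of 19 tested were higher and 4 lower, where 23.9% and 20.1% of all genes were. Cadps2, which primes dense-core vesicles for release, read 363, 411, 347 and 298 in PVN against 67.0, 78.2, 60.1, 36.8 and 59.8 in RVLM (2.52, SE 0.18, adjusted p = 2e-08). Pam, which amidates vasopressin, oxytocin and other peptides, read 1347, 1392, 1415 and 1529 against 457 to 522 (1.45, SE 0.12). Ptprn, a membrane protein of the granule, was higher by 1.16. Sec11c, a subunit of the signal peptidase, was lower by 1.18 (SE 0.16). Of the genes for synaptic vesicle release 5 of 20 were higher, near the share of all genes, and 7 lower, among them Cplx1, which clamps vesicle fusion, lower by 2.56 (SE 0.20), and Snap25, a fusion protein, lower by 1.05. Without PVN array 1, PVN array 2 or RVLM array 1 only 3 of them were higher.

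**Figure D3:**
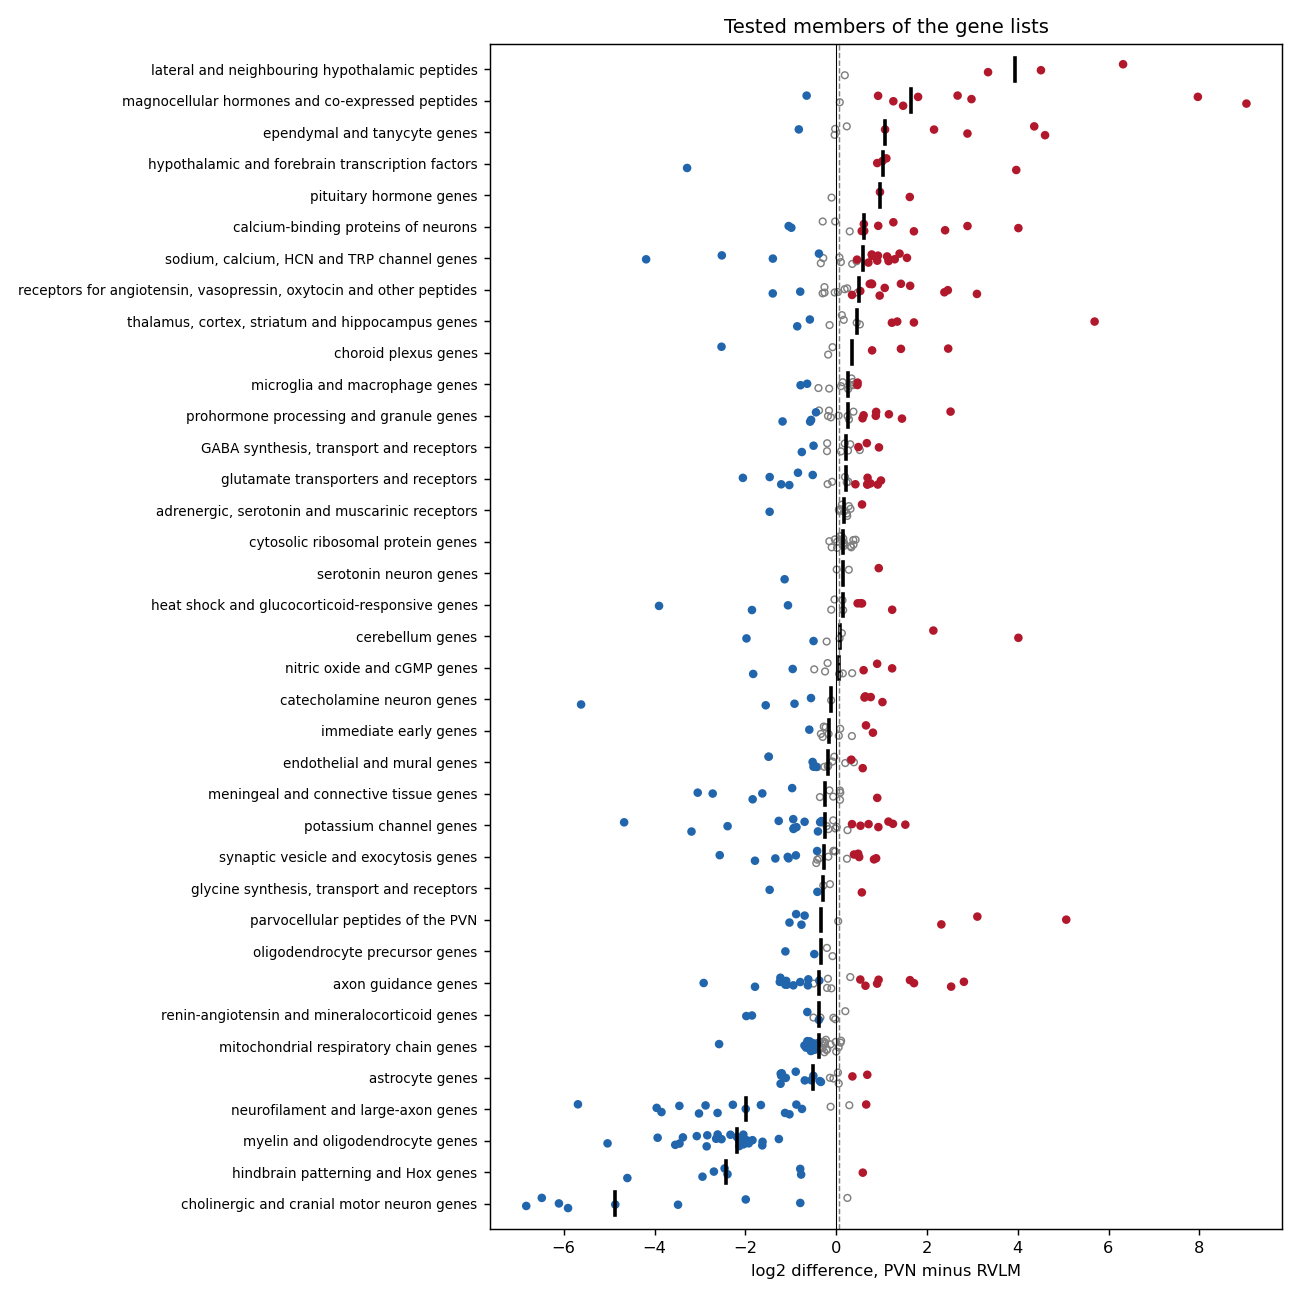
Differences between PVN and RVLM on the log2 scale for the tested members of each gene list, 1 point per gene, red or blue where called and open where not, with a bar at each list's median and a dashed line at the median of all genes (0.06). Medians were -4.87, -1.99 and -2.18 for the cholinergic, neurofilament and myelin lists and 1.64 for the magnocellular list.

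Myelin genes were lower in PVN without exception among those tested. Of 30 listed genes 26 had a probe set, and all 25 tested were called lower, with a median of -2.18. Mog, a surface protein of myelin, read 130, 126, 79.9 and 88.8 in PVN and 1100, 921, 1216, 1158 and 1036 in RVLM (-3.45, SE 0.19, adjusted p = 1.07e-09). Ugt8, which makes the galactolipids of myelin, read 57.6, 54.2, 57.6 and 54.2 against 732 to 944 (-3.93, SE 0.12). Gjb1, a gap junction protein of oligodendrocytes, was lower by 5.03, Ermn by 3.54 and Mobp by 3.38. The summed intensity of all its members with a probe set was 6465 to 8426 in PVN and 31190 to 36720 in RVLM, and 16450 on PVN array 3. The summed intensity of the neurofilament list was 10420 to 12160 in PVN, 31660 to 38020 in RVLM and 12270 on PVN array 3. The part of oligodendrocytes in the other differences was not tested.

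Astrocyte genes were lower in PVN for 11 of 17 tested and higher for 2, with a median of -0.50. Of all genes 20.1% were lower and 23.9% higher. Of the 2 higher astrocyte genes, 1 was lost without any 1 of 7 of the arrays. Gfap, an intermediate filament of astrocytes, read 1592, 1265, 1440 and 1726 in PVN and 2652, 2909, 3248, 3111 and 3566 in RVLM (-1.11, SE 0.16), and Glul, which makes glutamine, was lower by 1.22. The summed intensity of this list was 22970 to 25550 in PVN and 29090 to 34500 in RVLM. Microglial genes had sums of 1624 to 1958 and 1365 to 1691, which overlap, and endothelial genes 2375 to 2597 and 2455 to 2825. Of the meningeal genes 5 of 12 tested were lower in PVN, led by Ptgds, the prostaglandin D synthase of meninges and oligodendrocytes, at 353 ± 90.7 (n = 4) against 2746 ± 491 (n = 5). Ptgds read 4749 on PVN array 3, and with that array added 1 meningeal gene was lower in place of 5. The meningeal sums were 1130 to 1335 in PVN, 3151 to 4739 in RVLM, 14340 on PVN array 3 and 9896 to 18410 in SON.

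**Figure D4:**
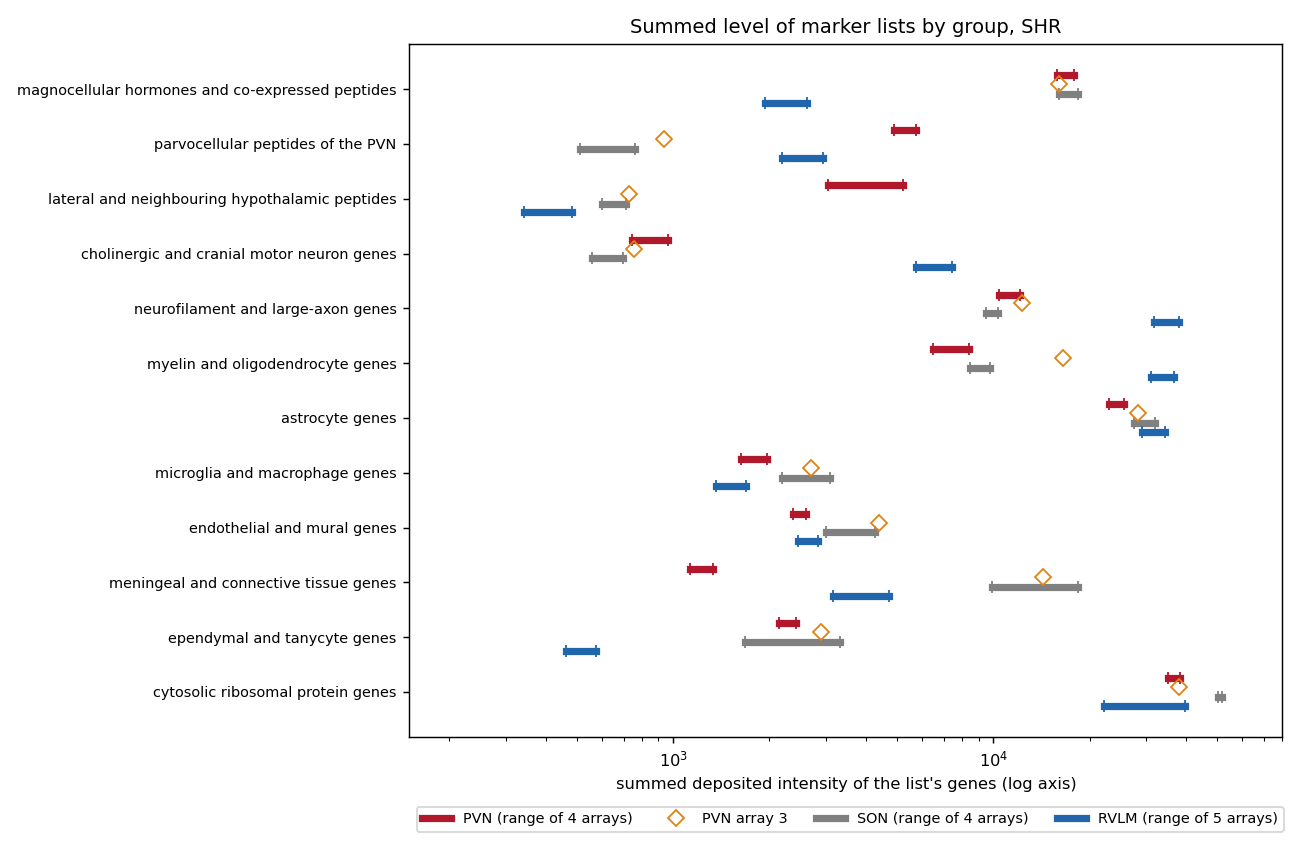
Summed deposited intensity of gene lists, on a log axis, as the range over the 4 PVN (red), 5 RVLM (blue) and 4 SON (grey) arrays, with a diamond for PVN array 3. The myelin sums were 6465 to 8426 in PVN and 31190 to 36720 in RVLM, and PVN array 3 lay within the SON range for the meningeal genes.

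Ependymal cells line the third ventricle, beside which the PVN lies, and carry motile cilia built on an axoneme of microtubules. Tmem212, a gene of ciliated cells, read 633, 658, 669 and 716 in PVN and 32.6, 29.5, 32.5, 27.1 and 34.0 in RVLM (4.36, SE 0.13, adjusted p = 7.91e-13). Foxj1, the master regulator of motile cilia, read 229, 259, 279 and 315 against 45.2, 23.2, 26.3, 45.6 and 39.5 (2.89, SE 0.20). Vim, a filament of ependymal cells and tanycytes, was higher by 2.16 (SE 0.14), and Crym, a thyroid hormone binding protein, by 1.08. In the ependymal list 5 of 9 tested genes were higher and 1 lower, with a median of 1.08, and the summed intensity was 2147 to 2422 in PVN and 463 to 573 in RVLM. On PVN array 3 that sum was 2887, but its Tmem212 read 32.0 and its Foxj1 85.5, while its Vim read 1787.

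Structural genes of the cilium stood among the largest differences. Dynlrb2, a dynein light chain, read 1428, 1456, 1440 and 1627 in PVN and 52.9, 44.5, 40.5, 39.2 and 41.5 in RVLM (5.03, SE 0.12, adjusted p = 1.04e-13), and 40.1 on PVN array 3. Cfap144, a protein of ciliary microtubules, read 648, 622, 741 and 617 against 15.1, 15.1, 2.84, 15.98 and 20.3 (5.75, SE 0.40), and Cfap161 was higher by 4.78. Rsph1, a radial spoke protein of the axoneme, read 168 ± 26.4 (n = 4) against 7.21 ± 3.19 (n = 5), a difference of 4.60 (SE 0.35). After these values were seen, all genes with symbols of the axoneme and intraflagellar transport families were counted. Of 82 with a probe set 58 were tested, 40 were higher in PVN and 3 lower, with a median of 0.95. Of all genes tested 23.9% were higher and 20.1% lower. Several of the 58, among them Cfap144, Cfap161 and Rsph1, lay under 26.2 in RVLM and passed through their PVN level. Without the filter 56 of the 82 were higher and 3 lower, with a median of 1.02, where 33.6% of 14217 genes were called. By family, 10 of 14 tested Cfap genes, 12 of 17 Ift genes, 5 of 6 Dnaaf genes and all 3 Rsph genes were higher, and none of 4 Spag genes was. The families were taken by symbol alone. Whether each gene, those named Spag among them, belongs to the cilium was not checked. PVN array 3 lay below the other 4 PVN arrays in 39 of the 40 higher genes, and with it in the fit 33 of 56 tested were higher.

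**Figure D5:**
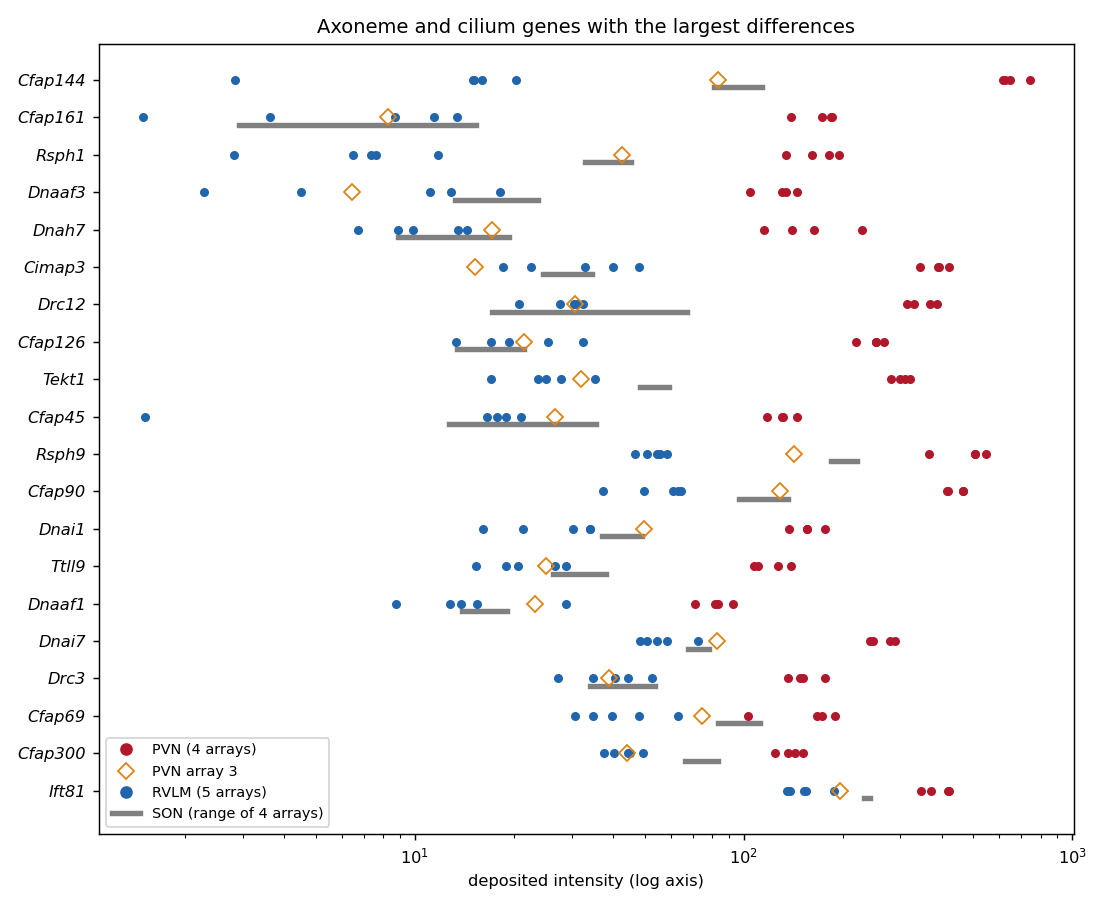
Deposited intensity, on a log axis, of the 20 cilium and axoneme genes with the greatest differences among those that passed the filter and were called higher, with points for the 4 PVN arrays (red) and 5 RVLM arrays (blue), a diamond for PVN array 3 and a bar for the range of the 4 SON arrays. For each gene the 4 PVN arrays lie above all RVLM arrays and above PVN array 3.

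Genes of motile cilia are often controlled by RFX factors through the X-box, and the half-site GTTGCCA (reverse complement TGGCAAC) was searched in the 250 bases before the start of the cilium genes called higher. Upstream sequence was at hand for 35 of these genes, in 41 stretches. The motif was held by 7 stretches (17.1%), each of a different gene. It was held by 3.67% of all 33469 stretches and 3.11% of the 9931 stretches of tested genes. The share among cilium genes not called higher was not counted. The 7 genes with the motif were Cfap161, Cfap20, Cfap298, Ift81, Ift88, Tekt1 and Ttll9. The stretches of 3 of them are shown, with the match in capitals, since they place it within 58 bases of the start. Cfap161 is chr1:147177822-147178071 on the minus strand, Ift88 is chr15:35688737-35688986 on the plus strand, and Tekt1 is chr10:57479122-57479371 on the minus strand (GRCr8).
Cfap161: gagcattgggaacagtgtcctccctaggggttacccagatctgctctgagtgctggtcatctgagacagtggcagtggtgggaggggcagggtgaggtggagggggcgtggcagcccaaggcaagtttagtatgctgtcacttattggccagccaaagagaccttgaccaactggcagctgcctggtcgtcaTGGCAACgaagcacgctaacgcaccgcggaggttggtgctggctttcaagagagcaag
Ift88: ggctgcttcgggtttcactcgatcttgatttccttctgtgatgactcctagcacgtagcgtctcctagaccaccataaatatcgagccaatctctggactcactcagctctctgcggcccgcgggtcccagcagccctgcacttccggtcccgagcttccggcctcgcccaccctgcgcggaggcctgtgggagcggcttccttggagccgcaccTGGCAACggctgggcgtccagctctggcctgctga
Tekt1: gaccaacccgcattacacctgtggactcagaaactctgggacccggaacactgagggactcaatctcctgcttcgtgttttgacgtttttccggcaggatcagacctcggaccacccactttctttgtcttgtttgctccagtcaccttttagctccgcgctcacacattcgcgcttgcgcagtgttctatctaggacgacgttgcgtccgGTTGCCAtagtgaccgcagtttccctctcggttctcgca
The matches begin 58, 35 and 39 bases before the start. As with the hormone genes, they describe the letters and do not show binding, and the set of genes was chosen after the values were seen.

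Genes of other brain regions and of stress were listed as a check on neighbouring tissue and handling. Of the thalamus, cortex, striatum and hippocampus genes 4 of 11 tested were higher and 2 lower. Of the cerebellum genes 2 of 7 were higher and 2 lower, where 23.9% and 20.1% of all genes were. Tnnt1, a troponin expressed in thalamus, read 319, 277, 332 and 372 in PVN and 1.65, 6.62, 5.43, 12.8 and 9.90 in RVLM (5.69, SE 0.43, adjusted p = 2.82e-08), and 17.1 on PVN array 3. Of the cerebellum list, Cbln1, a synaptic organiser, was higher by 2.14 (SE 0.14), and Etv1, a transcription factor, was lower by 1.97 (SE 0.12). Of 11 tested immediate early genes 2 were higher and 1 lower, 27.3% called against 44.0% of all genes. Without PVN array 2 none was higher, without PVN array 1, PVN array 5, RVLM array 1 or RVLM array 5 only 1 was, and without PVN array 1 there were 2 lower. Heat shock and glucocorticoid-responsive genes were higher for 4 of 11 tested and lower for 3, 63.6% called. Per1, a clock gene induced by glucocorticoids, was higher by 1.23 (SE 0.36) and Tsc22d3, another such target, lower by 1.06 (SE 0.19). Hspb1, a small heat shock protein abundant in motor and sensory neurons, read 54.9, 52.7, 41.4 and 42.1 in PVN and 748, 623, 541, 748 and 748 in RVLM (-3.90, SE 0.17). Pituitary hormones were low, though 2 of 3 tested members of their list were higher in PVN and none lower. Without the filter 3 of 10 were higher. Lhb was higher by 0.97 (SE 0.19).

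None of 17 tested ribosomal protein genes was called, with a median of 0.16, but all 17 were called higher after quantile normalization and 3 with the values as deposited. Their summed intensity was 35210 to 38180 in PVN and 22130 to 39730 in RVLM, where array 2 was lowest. Of 33 mitochondrial respiratory chain genes 15 were lower in PVN and none higher, where 20.1% of all genes were lower, with a median of -0.38. Leaving out RVLM array 2 raised the lower ones to 25, and leaving out PVN array 4 or PVN array 5 left 6. Leaving out RVLM array 3, 4 or 5 left 8, 9 and 7. Cox5a, a subunit of cytochrome oxidase, stood apart from that list at 142 ± 20.9 (n = 4) against 807 ± 94.2 (n = 5), a difference of -2.58 (SE 0.14, adjusted p = 1.01e-09). Axon guidance genes were higher for 8 of 25 tested and lower for 12, 80% called against 44.0% of all genes. Plxnc1, a semaphorin receptor, was higher by 2.81 (SE 0.15) and Epha5, an ephrin receptor, lower by 2.92.

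The SON, a second hypothalamic nucleus of vasopressin and oxytocin neurons, shows which of these differences PVN shared with it. Both comparisons use the same PVN arrays, and a fit of 13 arrays gave 2228 of 10558 genes (21.1%) that differed between PVN and SON, 1175 higher in PVN and 1053 lower. With PVN array 3 added this fell to 1298, 770 higher and 528 lower. Avp read 5056 ± 495 and Oxt 4513 ± 343 in SON (n = 4), and neither was called against PVN (PVN minus SON -0.17, SE 0.15, adjusted p = 0.499, and -0.13, SE 0.33, adjusted p = 0.836). Pdyn was higher in SON, at 2397 ± 260 (difference -1.90, SE 0.19), as was Th, at 476 ± 54.9 (-0.87, SE 0.20, adjusted p = 0.00495). Crh and Trh were higher in PVN than in SON by 4.65 (SE 0.14) and 3.90 (SE 0.36), Sst by 4.60, Pmch by 5.51 and Agtr1a by 1.85.

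The RVLM genes divided against SON as well. Calca and Nefh were low in SON too, at 12.4 ± 2.79 and 270 ± 37.8 (n = 4), and were not called against PVN (0.18, SE 0.56, adjusted p = 0.866, and -0.17, SE 0.18, adjusted p = 0.563). Chat and Slc5a7 were higher in SON than in PVN, by 3.60 and 2.74 on the log2 scale, at SON means of 76.5 and 152. Dynlrb2 and Tmem212 were higher in PVN than in SON by 4.73 and 4.34. Of 54 cilium genes tested 32 were higher in PVN and 1 lower, where 21.1% of all genes were called. Among 553 genes higher in PVN than in RVLM by at least 1 and tested against SON, 273 were also higher than SON, 38 were lower and 242 were not called. Of 615 lower by at least 1, 156 were also lower than SON, 53 were higher and 406 were not called. A gene not called against SON was not shown to be equal there.

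The WKY RVLM arrays are given for level only. Calca averaged 1185 ± 181 there (n = 5) beside 1475 ± 124 in SHR RVLM (n = 5), Nefh 3164 ± 544 beside 3560 ± 678, Pnmt 178 ± 39.1 beside 192 ± 50.8, and Mog 1064 ± 112 beside 1086 ± 114. Avp averaged 16.6 ± 7.82 and Oxt 8.66 ± 4.44 in WKY RVLM. No PVN of WKY was analysed here, so the comparison between regions belongs to SHR.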

How the data were processed

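The authors deposited linear intensity values per probe set, 1 table for all arrays, made with GCOS 1.2 per the submitters' processing notes; each array has a 2% trimmed mean near a common target. Detection calls were not used here. Of 31099 probe sets, 57 controls were left out. Of the rest, 20826 were paired with 1 gene, 436 with several and 9780 with none, giving 14217 genes. Intensities were put on the log2 scale, arrays were shifted to a common median, and limma 3.58.1 in R 4.3.3 (lmFit, eBayes with trend) was fitted to 4 PVN and 5 RVLM arrays, or to 13 arrays with SON. The fit was tested on simulated data.

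Genes named are 17 fixed markers, the 12 largest non-overlapping differences in each direction and up to 5 called members of each of 37 lists. Lists, members and rule were chosen with earlier results of these data known. Whether array numbers pair the regions is not known. Deviations from the group means correlated at -0.02, 0.02, -0.08 and -0.12 between arrays of the same number. These values cannot settle it, since pools from the same rats need not deviate together. Alternatives were scaling, pseudocount, filter, probe set rule, array weights, replicate block, leaving out each array, and adding PVN array 3.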

Additional observations from a re-analysis of the deposited data

Results flagged for a closer look

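On 16 of 338 gene and group combinations examined (Dixon's test at 95%, which flags about 1 in 20 by chance), 1 array stood apart from the others of its group, and 5 of the 16 were on RVLM array 2. That array read high for Slc6a5 (14.1, others 1.44 to 4.04), Kcna1 (774, others 628 to 668) and Gabbr1 (921, others 660 to 733), and low for Hoxb2 (93.3, others 115 to 123) and Ndufa5 (271, others 493 to 543). RVLM array 5 was high for Tcf7l2 (162, others 115 to 124), and RVLM array 3 for Kcnk2 (79.5, others 45.5 to 51.7).

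In PVN, array 1 was high for Pdyn (768, others 586 to 610), Cyb561 (523, others 377 to 387) and Csf1r (239, others 163 to 175). PVN array 2 was low for Pex5l (1.82, others 12.1 to 13.1) and high for Gabrb1 (629, others 530 to 547). PVN array 4 was high for Gabbr1 (1580, others 1420 to 1450) and Grik4 (42.8, others 30.1 to 32.1). PVN array 5 was high for Dynlrb2 (1630, others 1430 to 1460) and Ptprn (789, others 640 to 659).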

How the results depend on the processing

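Over all settings, 6127 to 9463 probe sets and 3789 to 5483 genes were called between PVN and RVLM, and 1298 to 2971 genes between PVN and SON. Leaving out 1 array at a time gave 7143 to 8459 probe sets, 4001 to 4810 genes and 1610 to 2494 genes. Adding PVN array 3 gave 6971 probe sets and 4026 genes, and 1298 genes against SON. With the replicate number as a block the counts were 6819, 3789 and 1686; the numbers are not known to pair the samples. Of 162 called genes named by the rule, 131 kept the call in all 22 settings, 31 lost it in at least 1, and none reversed. Calls lost with PVN array 3 added included Sst, Lum, Ogn, Dcn, Igfbp2, Vwf and Flt1. The mean of a gene's probe sets that passed the filter ended the calls of Ptprz1 (-0.03) and Tcf7l2 (0.31). For Ptprz1 the 1 other tested probe set was called higher in PVN. For Tcf7l2 the 1 other did not go the same way and was not called. Why probe sets of a gene differ, and why calls were lost with PVN array 3, was not tested. The number of arrays and low intensities limit precision: sizes at intensities below 26.2 are loosely set.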

Other observations

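Genes outside the lists, chosen here after their values were seen, also differed. Hdc, which makes histamine in neurons of the tuberomammillary nucleus, read 94.9 ± 13.4 in PVN (n = 4) and 9.85 ± 3.12 in RVLM (n = 5), a difference of 3.25 on the log2 scale (limma, adjusted p = 5.04e-08). Foxp2, a forkhead transcription factor, read 145 ± 15.3 and 13.6 ± 7.63 (3.64, SE 0.44, adjusted p = 5.26e-06). Aurkb, a mitotic kinase named among the largest differences, read 442 ± 49.3 and 13.5 ± 6.61 (5.19) and 27.0 on PVN array 3. Prc1, a gene of the mitotic spindle, was also higher, at 124 ± 25.6 and 13.5 ± 8.82 (3.39, SE 0.40, adjusted p = 4.15e-06), while Birc5, Tacc3, Cdc20, Cenpf and Ccnb1, other genes of mitosis, were not called.

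On the RVLM side, Apod, a lipid carrier of oligodendrocytes and meninges, averaged 361 in PVN and 4403 in RVLM (-3.68), and Hapln2, a protein of the node of Ranvier, was lower in PVN by 3.92 on the log2 scale. RVLM array 2 read lowest of its group for ribosomal protein genes, with 628 for Rps3 against 1446 to 1945 on the other 4.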
